A study of Mus musculus with 33 samples.

Results

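The primary (azurophil) granule genes of granulocyte-monocyte progenitors (GMPs) were followed across 33 total RNA sequencing libraries of sorted mouse bone marrow cells. The set was defined by symbol as Mpo, Elane, Prtn3, Ctsg, Prss57, Ms4a3 and Ly6c2, which are 7 of the 55376 gene symbols counted, and all 7 symbols were found. The cells came from the bone marrow of old male C57BL/6 mice aged 24 to 29 months. O-WT mice were untreated, and O-NR mice drank water with nicotinamide riboside (NR), which cells convert to NAD+, for 4 to 6 weeks. O-NR-RC mice received NR and then had a washout of 2 months without it. Cohort 2 held 4 O-WT and 4 O-NR libraries each of hematopoietic stem cells (HSCs), common lymphoid progenitors (CLPs) and GMPs, while cohort 1 held HSCs alone, with 4 libraries from O-NR mice, 2 from untreated mice and 3 from mice after washout. HSCs were sorted as lineage-negative, c-Kit+ Sca1+ CD34- Flk2- CD150+ cells. One label field names the GMPs common myeloid progenitors, whereas the sample titles and the study name them GMPs, which is the name kept here. Whether a library stands for 1 mouse is not stated, so the p-values measure the spread between these libraries. No genetic alteration is given for any group.

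Counted reads ranged from 4792380 to 23816042 per library. Levels are given as CPM, read counts normalized to the total of counted reads in the library. Fold changes and correlations were computed after a further scaling between libraries by the TMM method. The marker sums set beside members in correlations are an exception, being sums of CPM without that scaling. The sorted populations were checked against markers of each cell type. A sum of 8 HSC markers was 1759 to 2000 CPM in the HSC libraries of cohort 2, against 126 to 209 CPM in CLPs and 61.2 to 93.3 CPM in GMPs. A sum of 6 GMP markers was 629 to 656 CPM in GMPs, 203 to 227 CPM in HSCs of cohort 2 and 176 to 219 CPM in CLPs. Within this sum Csf3r and Ctsc averaged 122 and 38.1 CPM in GMPs against 125 and 59.3 CPM in HSCs. In CLPs Clec12a had the highest mean of the 6, 95.6 CPM. Fcgr3 averaged 115, 3.00 and 4.94 CPM in GMPs, HSCs and CLPs, so the markers differ in how particular they are to GMPs. No marker of these lists was at 0 in any group. In cohort 1, 4 libraries stood apart from the other 5, namely O-NR replicates 1 and 2 and O-NR-RC replicates 2 and 3. The summed reads of 1091 olfactory receptor genes, which blood cells are not known to use, made up 8919 to 9614 CPM in those 4 libraries and 2826 to 5684 CPM in the other 5. The comparisons of members within cohort 1 are therefore given with and without them.

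Azurophil granules are the first granules that a developing neutrophil builds, at the promyelocyte stage, and their cargo is transcribed in the progenitors just before and during that stage. Mpo encodes myeloperoxidase, the heme enzyme that makes hypochlorous acid in the phagosome. Elane (neutrophil elastase), Prtn3 (proteinase 3) and Ctsg (cathepsin G) encode serine proteases that are activated by the dipeptidase cathepsin C and stored in the granule. Prss57 encodes a further granule serine protease. Ms4a3 encodes a four-span membrane protein used as a marker of the GMP lineage, and Ly6c2 encodes the Ly6C surface antigen of monocytes and their precursors. C/EBP alpha, PU.1, RUNX1 and MYB are known regulators of this group of genes in myeloid cells.

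The members lie on 5 chromosomes of the mm10 assembly. Prss57 (chr10:79781474-79790961, minus strand), Prtn3 (chr10:79874476-79883174, plus strand) and Elane (chr10:79886247-79888215, plus strand) share one stretch of chromosome 10. Mpo lies at chr11:87793581-87804413 on the plus strand, Ctsg at chr14:56099881-56102574 on the minus strand, Ms4a3 at chr19:11629496-11640851 on the minus strand and Ly6c2 at chr15:75108158-75111970 on the minus strand. Exons of 3 members overlap exons of a gene on the other strand. The shared stretch is 512 bp for Mpo with Gm11505, 159 bp for Prtn3 with Plppr3 and 1157 bp for Prss57 with Fstl3. Ly6c2 has a near-identical copy, Ly6c1, and how reads that fit both were assigned is not stated, so its counts are uncertain.

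The 4 enzymes that gave the most reads per kilobase in GMPs are shown by the bases before their start sites, because these members moved together between cell types except for Prtn3. The sequences are from RefSeq (GRCm38.p6), run 5′ to 3′ on the gene's own strand from up to 250 bases before the start, and stop at the first annotated exon of any gene. Capitals mark matches on either strand to TATAA (TATA box), TTGCNNAA (C/EBP), GAGGAA (PU.1), TGTGGT (RUNX) and AACNG (MYB), and a match can be cut by the end of a run.
Prtn3, chr10:79879417-79879613, plus strand: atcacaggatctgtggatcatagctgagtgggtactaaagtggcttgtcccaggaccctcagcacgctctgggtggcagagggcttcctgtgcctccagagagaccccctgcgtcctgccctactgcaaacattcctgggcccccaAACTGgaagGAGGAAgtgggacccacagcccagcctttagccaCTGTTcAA
Elane, chr10:79886062-79886246, plus strand: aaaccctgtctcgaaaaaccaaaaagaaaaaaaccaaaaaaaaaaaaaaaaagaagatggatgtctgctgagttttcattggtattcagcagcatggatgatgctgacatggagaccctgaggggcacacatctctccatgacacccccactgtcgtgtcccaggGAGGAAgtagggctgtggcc
Mpo, chr11:87793534-87793580, plus strand: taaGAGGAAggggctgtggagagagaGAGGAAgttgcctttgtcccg
Ctsg, chr14:56102575-56102824, minus strand: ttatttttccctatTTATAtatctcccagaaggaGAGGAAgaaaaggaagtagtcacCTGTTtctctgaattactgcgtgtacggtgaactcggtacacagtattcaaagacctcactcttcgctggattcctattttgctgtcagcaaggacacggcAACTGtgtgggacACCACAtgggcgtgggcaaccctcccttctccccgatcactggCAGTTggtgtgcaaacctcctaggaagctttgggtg

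RefSeq promoter entries were found for 6 of the 7 members, all but Prss57. The letters GAGGAA were present in the 250 bases before the start of 5 of these 6 (Prtn3, Elane, Mpo, Ctsg and Ly6c2) and not in that window of Ms4a3. Of 32851 windows of the same length, 23.3% held them. GAGGAA began 95 bases before the start of Prtn3 and 85 bases before that of Elane, both on the gene's own strand and both followed by GT. TATAA began 32 and 31 bases before the starts of Prtn3 and Elane, in bases not printed above, and was found in 22.8% of all windows. Mpo held GAGGAA at 247 and 224 bases before its start. The looser MYB letters were present in 5 of the 6 members and in 74.2% of all windows, while TTGCNNAA was in none of the 6 and in 9.56% of all windows. These matches are descriptions of the letters only.

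GMPs carried far more of these transcripts than either other population. The 7 genes together took 1.74 to 2.00% of all counted reads in the 8 GMP libraries, 0.0307 to 0.0594% in CLPs and 0.00929 to 0.0122% in HSCs of cohort 2. Mpo alone gave 14018 to 16223 CPM in GMPs, with a median of 15018 CPM. In CLPs Mpo ranged from 237 to 458 CPM (median 366) and in HSCs of cohort 2 from 1.86 to 5.57 CPM (median 4.24). The 3 ranges did not touch, and the mean in CLPs was 2.33% of the mean in GMPs.

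**Figure D1:**
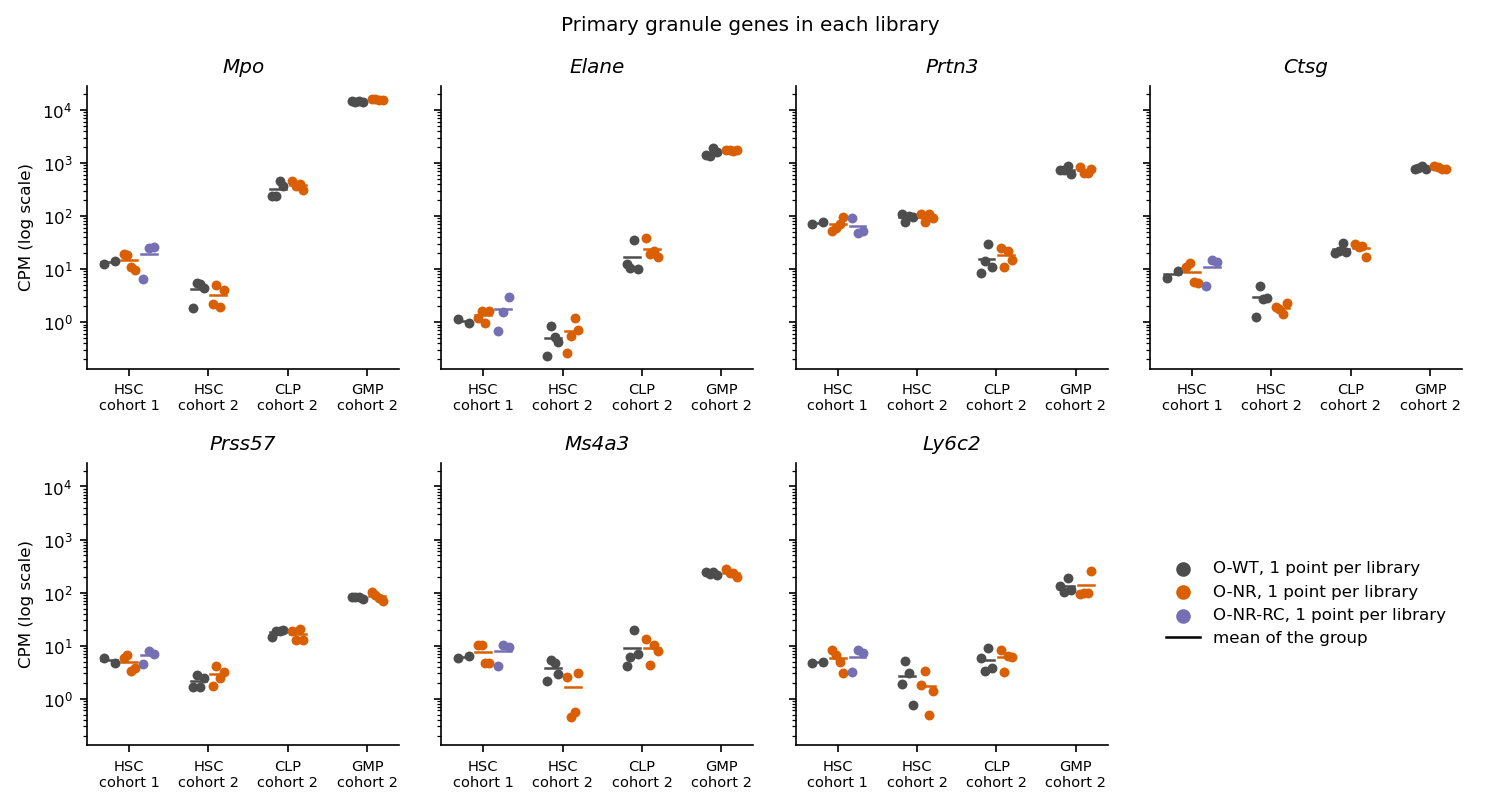
CPM on a log scale for each of the 7 genes, 1 panel per gene, with 1 point per library in HSCs of cohort 1, HSCs, CLPs and GMPs of cohort 2, colored by treatment. All 7 genes are highest in the GMP libraries, where Mpo sits between 14018 and 16223 CPM, and Prtn3 alone is higher in every HSC library than in any CLP library.

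The granule serine proteases followed at lower levels. Elane was at 1330 to 1910 CPM in GMPs (median 1722), 9.95 to 38.5 CPM in CLPs (median 17.9) and 0.233 to 1.204 CPM in HSCs of cohort 2 (median 0.541). The Elane count in those 8 HSC libraries was 53 reads in all. Ctsg was at 760 to 897 CPM in GMPs, 16.6 to 30.5 CPM in CLPs and 1.24 to 4.86 CPM in HSCs of cohort 2. For both genes the 3 cell types stood in the order GMP, CLP, HSC without overlap. Prss57 had the shallowest gradient of the enzymes between GMPs and CLPs, with 67.8 to 102 CPM in GMPs, 12.6 to 20.9 CPM in CLPs and 1.63 to 4.10 CPM in HSCs of cohort 2. Its mean in CLPs was 20.5% of that in GMPs, against 1.24 to 4.24% for the other 6 genes.

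The surface protein genes were lower still. Ms4a3 ranged from 192 to 280 CPM in GMPs, 4.17 to 19.4 CPM in CLPs and 0.443 to 5.34 CPM in HSCs of cohort 2. Ly6c2 ranged from 94.5 to 257 CPM in GMPs, 3.17 to 8.97 CPM in CLPs and 0.496 to 5.10 CPM in HSCs of cohort 2. For these genes CLPs and HSCs overlapped, while no CLP or HSC library reached the lowest GMP library. Ly6c2 was also the most variable member among GMP libraries, with a coefficient of variation of 42.9%, against 5.65% for Mpo, 6.62% for Ctsg and 10.9 to 11.99% for the other 4 genes.

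Per kilobase of exon, a scale on which genes can be compared, the order in GMPs was Mpo with a mean of 4417 CPM per kb, Elane with 1687, Ctsg with 787, Prtn3 with 427, Ms4a3 with 123, Ly6c2 with 49.1 and Prss57 with 29.1. Mpo also led in CLPs at 103 CPM per kb, followed by Ctsg at 23.3 and Elane at 20.9 CPM per kb. These last values lay within 1 SD of each other (4.73 and 11.2, n = 8 each). In HSCs of cohort 2 the order was different, because Prtn3 led with 56.1 ± 7.95 CPM per kb (SD, n = 8) and each other member had a mean between 0.600 and 2.31 CPM per kb.

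The differences between cell types were tested in O-WT cells with edgeR's quasi-likelihood test over 22573 genes, and a difference was called where the Benjamini-Hochberg adjusted p was below 0.05. In bulk samples a difference in level cannot separate fewer cells that express a gene from less RNA of it per cell. All 7 genes were called higher in GMPs than in HSCs, where 18.6% of all genes tested were called higher and the median log2 fold change of all genes was -0.32. Mpo and Prtn3 alone passed the filter on low counts in the HSC libraries by themselves. The other 5 genes entered this test through the cells where they were high, so that their count supports nothing further. Mpo was higher by 12.15 on the log2 scale (SE 0.44, edgeR adjusted p = 6.6e-30). Elane was higher by an estimated 12.03 (SE 0.44), a value taken against an HSC level of 53 reads in 8 libraries that many olfactory receptor genes reach. Ctsg was higher by 8.55 (SE 0.32), Ms4a3 by 6.36 (SE 0.35), Ly6c2 by 6.13 (SE 0.36) and Prss57 by 5.62 (SE 0.25). Prtn3 had the smallest difference of the set, 3.29 (SE 0.28, edgeR adjusted p = 4.3e-15).

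Against CLPs, all 7 genes were again higher in GMPs, where 24.1% of all genes tested were called higher and the median of all genes was -0.42. Elane differed by 7.19 (SE 0.35, edgeR adjusted p = 3.3e-24), Prtn3 by 6.24 (SE 0.32), Mpo by 6.03 (SE 0.34) and Ctsg by 5.67 (SE 0.27). Ms4a3 and Ly6c2 differed by 5.33 (SE 0.33) and 5.22 (SE 0.34). Prss57 differed by 2.70 (SE 0.21, edgeR adjusted p = 1.0e-15), the smallest value of the 7.

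CLPs were compared with HSCs to see which members were already above the stem cell level in the lymphoid progenitors. Of the 7 genes, 5 were called higher in CLPs and 1 lower, where 9.38% of all genes tested were called higher and 16.7% lower. All but Mpo and Prtn3 again owed their place in the test to cells other than HSCs. Mpo was higher by 6.12 (SE 0.35, edgeR adjusted p = 3.5e-21), Elane by 4.84 (SE 0.40), Prss57 by 2.92 (SE 0.24) and Ctsg by 2.88 (SE 0.26). Ms4a3 was higher by 1.02 (SE 0.32, edgeR adjusted p = 0.0123). The Ms4a3 call rested on CLP O-WT replicate 3, the library with the fewest counted reads of all (4792380). Without it the difference was 0.66 (edgeR adjusted p = 0.140). The call was also lost without HSC O-WT replicate 1 or 4 and with DESeq2. Ly6c2 differed by 0.91 (SE 0.36, edgeR adjusted p = 0.0557), which missed the threshold. The call was gained, at an edgeR adjusted p of 0.0127, without HSC O-WT replicate 2, and with CLP O-WT replicate 2 left out it was 0.0318.

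Prtn3 was the exception, because it fell by 2.96 on the log2 scale from HSCs to CLPs (SE 0.28, 95% interval -3.52 to -2.39, edgeR adjusted p = 4.7e-13). The O-WT HSC libraries of cohort 2 held 111, 78.0, 99.8 and 96.9 CPM of Prtn3, and the O-NR HSC libraries 111, 77.7, 110 and 92.3 CPM. The O-WT CLP libraries held 8.34, 13.9, 29.4 and 11.0 CPM and the O-NR CLP libraries 25.4, 10.8, 22.04 and 14.7 CPM. Every HSC library was above every CLP library in both conditions, and the mean over the 8 HSC libraries was 5.73-fold that of the 8 CLP libraries. In the 8 GMP libraries Prtn3 lay between 633 and 874 CPM, so that HSCs reached 13.1% of the GMP level. For the other 6 genes, HSCs reached 0.0249 to 3.02% of it. The fall was called in all 32 alternatives tried, with values from -3.20 to -2.65.

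**Figure D2:**
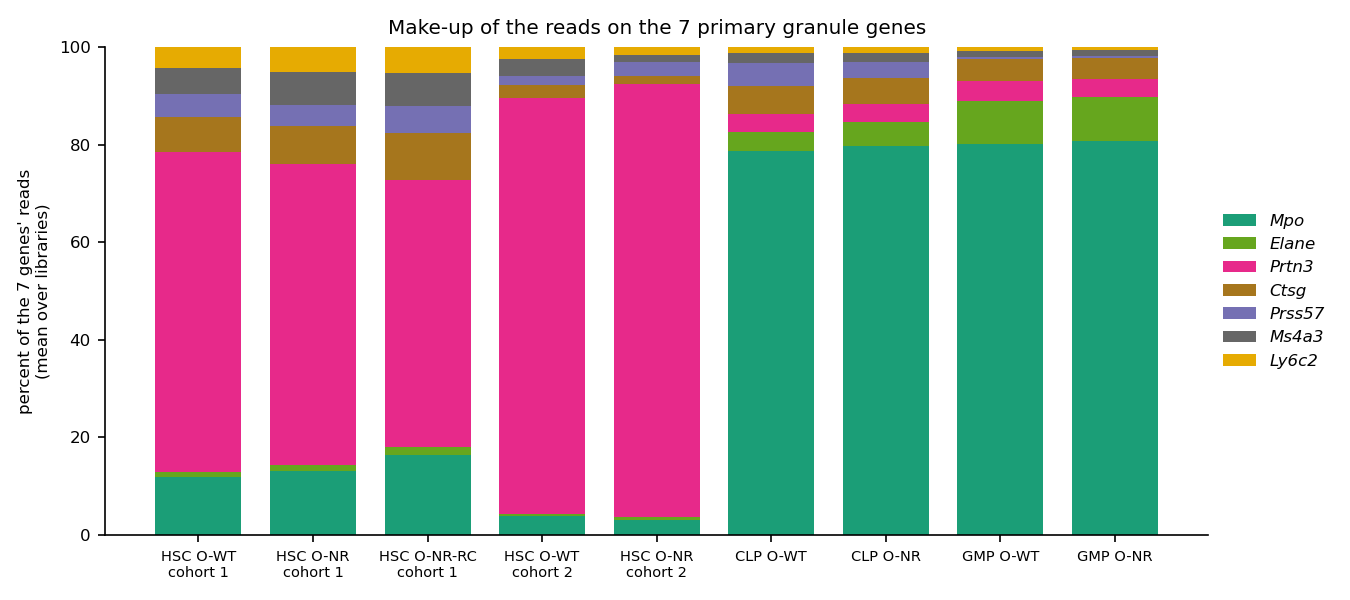
Percent of the reads on the 7 genes that belonged to each gene, as means over the libraries of each of the 9 groups, in stacked bars that start at 0. Mpo fills most of each GMP and CLP bar, and Prtn3 fills most of each HSC bar of cohort 2, with 76.2 to 93.2% in single libraries.

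The make-up of the set is given as a description. Mpo gave 77.9 to 81.7% of the set's reads in single GMP libraries and 76.0 to 83.6% in single CLP libraries. Prtn3 gave 76.2 to 93.2% in HSC libraries of cohort 2 and 41.1 to 79.5% in those of cohort 1. Per read of Mpo, O-WT HSCs of cohort 2 held 14 to 59.6 reads of Prtn3, O-WT CLPs 0.0301 to 0.0652 and O-WT GMPs 0.0452 to 0.0593. The mean log2 ratio of Prtn3 to Mpo was 9.09 higher in HSCs than in CLPs of O-WT mice, and 9.46 higher in those of O-NR mice. It was 0.21 lower in CLPs than in GMPs of O-WT mice. This ratio was chosen after the levels had been seen and restates them, so it is given with no test.

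The reads assigned to Prtn3 were next set beside those of its neighbors. Prtn3 has 6 annotated transcripts, and one of them, the processed transcript Prtn3-202, begins 5138 bp before the coding transcript Prtn3-201. Its first exon (chr10:79874476-79874721, 246 bp) shares 159 bp with an exon of Plppr3, a membrane phosphatase-related gene on the other strand. Plppr3 was at 85.6 to 135 CPM in HSCs of cohort 2, 28.2 to 46.1 CPM in CLPs and 132 to 154 CPM in GMPs. It therefore had the same order of cell types as Prtn3, with HSCs above CLPs. It fell by 1.80 on the log2 scale from HSCs to CLPs in O-WT cells, and was 0.69 higher in GMPs than in HSCs, both called.

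Prtn3 gave 0.775 to 1.04 reads per Plppr3 read in HSCs of cohort 2, 0.642 to 0.884 in HSCs of cohort 1 and 0.251 to 0.711 in CLPs. In GMPs the ratio was 4.19 to 6.60. Across libraries of a single cell type, the log2 CPM of Prtn3 and Plppr3 were correlated with r = 0.99 in the 9 HSC libraries of cohort 1, 0.95 in the 8 of cohort 2 and 0.87 in the 8 GMP libraries, but 0.06 in the 8 CLP libraries. Prtn3 and Mpo had r = -0.71 and -0.81 in the HSC libraries of cohorts 1 and 2, 0.53 in CLPs and 0.89 in GMPs. These are descriptions over few libraries that share depth and composition. The TMM factor of a library enters both genes of a pair, and ran from 0.414 to 0.761 in GMPs. In CPM, O-WT GMP replicates 3 and 4 held the highest and lowest Prtn3 (874 and 633) and both held 132 of Plppr3. The r values in GMPs thus hold the factors as well as the genes, and the part of the factors was not tested. The gene-level counts do not tell which transcript or strand the Prtn3 reads of HSCs came from, and the part of Plppr3 in them was not tested.

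**Figure D3:**
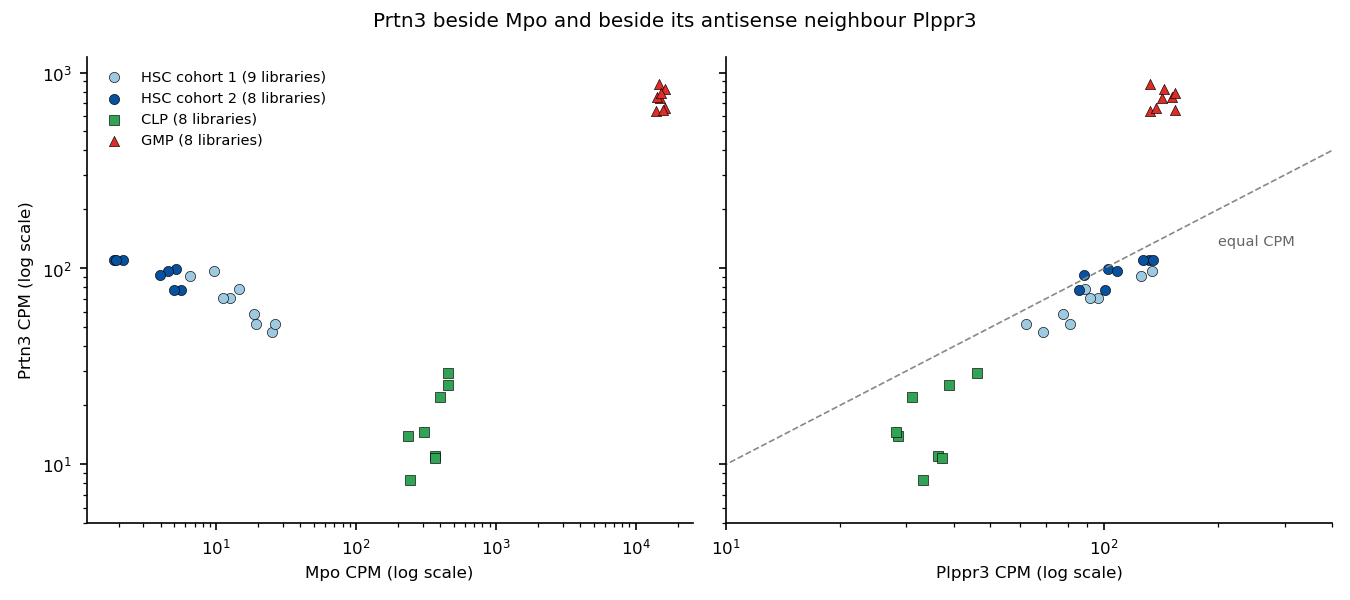
Prtn3 CPM against Mpo CPM and against Plppr3 CPM, both axes on a log scale, with 1 point per library by cell type and cohort. The HSC libraries have the lowest Mpo of all libraries, and beside Plppr3 they lie close to the dashed line of equal CPM, where they hold 0.642 to 1.04 reads of Prtn3 per read of Plppr3.

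Other annotated neighbors within 50 kb gave a mixed picture. Arid3a, which encodes a DNA-binding factor and lies 43869 bp from Prtn3, averaged 25.5 CPM in HSCs, 16.8 CPM in CLPs and 79.8 CPM in GMPs. Over the 24 libraries of cohort 2, Prtn3 had r = 0.96 with Arid3a and 0.95 with Plppr3. It had r = 0.84 with Med16, 0.76 with R3hdm4, 0.73 with Ptbp1 and 0.66 with Elane. Following Prtn3 across cell types was thus not particular to Plppr3. Mcpt8, a basophil protease gene 14608 bp from Ctsg, was 6.32 higher in GMPs than in HSCs on the log2 scale, and Ms4a2, which encodes the beta chain of the IgE receptor and lies 5777 bp from Ms4a3, was 5.46 higher. Tspoap1 near Mpo and Palm near Prss57 were 3.23 and 4.06 higher. By contrast Cfd, the complement factor D gene 2638 bp from Elane, averaged 0.769 CPM in HSCs, 1.37 CPM in CLPs and 1.02 CPM in GMPs.

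The lowest levels were read against the olfactory receptor genes, a stand-in for reads that are not of blood cell transcripts. In HSCs of cohort 2 the 1091 olfactory receptor genes had a median of 0.373 CPM per kb and a 95th percentile of 1.06. Of them, 231 were at or above Elane, 118 at or above Ly6c2, 94 at or above Prss57 and 48 at or above Mpo. Only 17 reached Ms4a3 and 3 reached Ctsg, and none reached Prtn3. In each HSC library of cohort 2, Prtn3 per kb was 56.9 to 246 times the mean level of these genes, and Mpo 1.92 to 3.52 times. In CLPs no olfactory receptor gene reached Mpo, Elane, Prtn3 or Ctsg, 1 reached Prss57 and 1 reached Ms4a3, and 16 reached Ly6c2. In GMPs none reached any member, and Mpo per kb was at least 10146 times their mean.

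**Figure D4:**
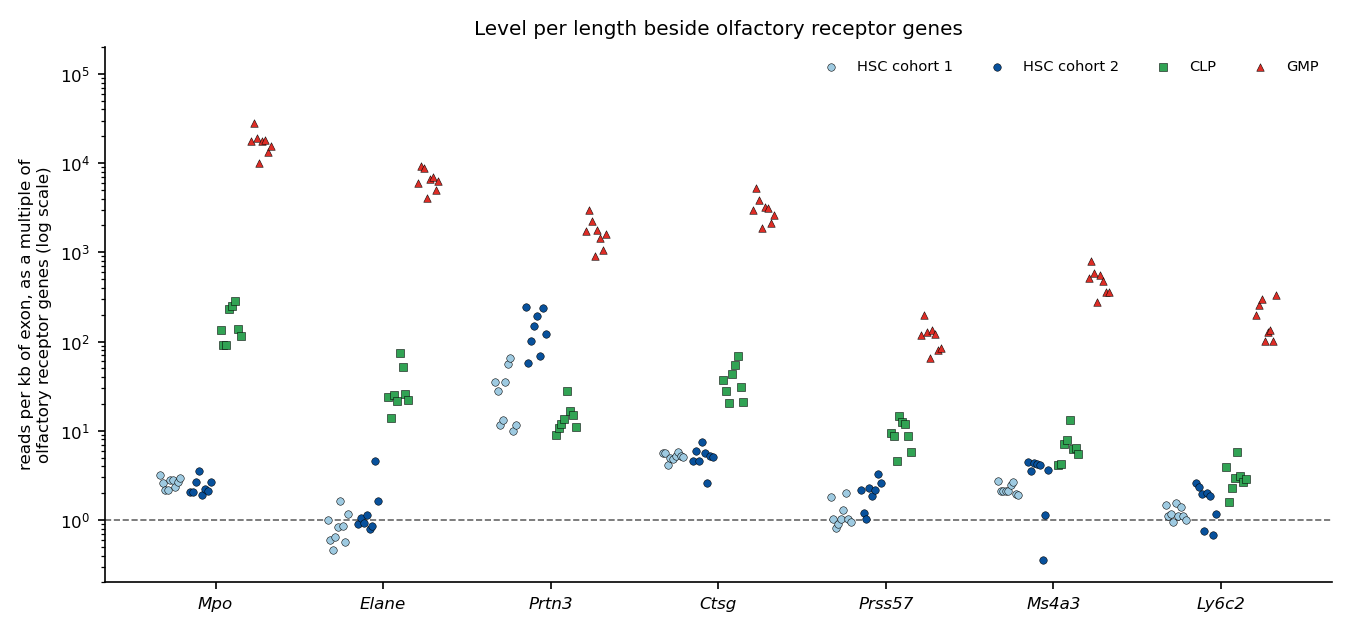
Reads per kb of exon for each of the 7 genes as a multiple of the olfactory receptor genes in the same library, on a log scale, with 1 point per library by cell type and cohort and a dashed line where the levels are equal. In HSCs Mpo lies at 1.92 to 3.52 times that level in cohort 2 and 2.15 to 3.17 times in cohort 1, and Prtn3 at 56.9 to 246 and 9.97 to 65.7 times.

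The HSC libraries of cohort 1 were at higher levels than those of cohort 2 for 6 of the 7 genes, with mean CPM 2.22 to 4.23 times as high, and at 0.709 times for Prtn3. After TMM scaling these ratios were smaller, from 1.24 for Prss57 to 2.31 for Mpo, and 0.435 for Prtn3. Without the 4 libraries that stood apart the scaled ratios were 1.31 to 2.13 for the 6 genes and 0.608 for Prtn3. In cohort 1 the mean level of Elane per kb was below the median olfactory receptor gene, with 691 of 1091 at or above it. The cohorts differ in more than the libraries' treatment, and the cohort difference was not tested. Mpo was at 12.5 and 14.5 CPM in O-WT, at 19.2, 18.7, 11.1 and 9.68 CPM in O-NR and at 6.51, 24.9 and 26.4 CPM in O-NR-RC. Prtn3 was at 70.4 and 78.4 CPM in O-WT, at 52.0, 58.7, 71.0 and 97.6 CPM in O-NR and at 91.7, 47.3 and 52.0 CPM in O-NR-RC. In CPM the 4 libraries that stood apart were the 4 highest for Mpo (18.7 to 26.4 CPM) and the 4 lowest for Prtn3 (47.3 to 58.7 CPM). In CPM they were also above the other 5 for Ctsg, Ms4a3 and Ly6c2, whereas Prss57 and Elane overlapped. After TMM scaling Mpo was at 8.49 to 11.3 scaled CPM in those 4 and at 5.83 to 9.48 in the other 5, and none of the 7 genes was higher in all 4. Prtn3 remained lower in all 4 after scaling, at 19.9 to 26.7 against 51.3 to 82.2 in the other 5. Relative to the olfactory receptor genes of the same library, Mpo was 2.15 to 3.17 times as high over the 9 libraries, close to the 1.92 to 3.52 times of cohort 2. The part of these reads in the levels was not tested further.

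NR was given to ask whether it changes the state of aged progenitors, and each cell type was tested for a difference in the members with NR. No member was called in GMPs, where edgeR called 0 of 13486 genes (0%), with 651 genes (4.83%) at an unadjusted p below 0.05. The O-WT GMP libraries held 14913, 14087, 14732 and 14018 CPM of Mpo and the O-NR libraries 16123, 16223, 15761 and 15123 CPM. All 4 O-NR libraries were above all 4 O-WT libraries, as was so for 2.1% of the genes tested. After scaling between libraries the log2 difference was 0.10 (SE 0.07, 95% interval -0.06 to 0.26, edgeR adjusted p = 0.997). The share of reads on the 7 genes was 1.80 ± 0.0739% in O-WT and 1.96 ± 0.0511% in O-NR GMPs (SD, n = 4 each).

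The proteases in GMPs gave similarly narrow intervals. Elane differed by 0.13 (95% interval -0.09 to 0.34), Ctsg by -0.02 (-0.20 to 0.17), Prtn3 by -0.07 (-0.32 to 0.18) and Prss57 by 0.04 (-0.19 to 0.28). The interval was -0.22 to 0.23 for Ms4a3 and -0.62 to 0.61 for Ly6c2. The Ly6c2 values were 133, 103, 184 and 112 CPM in O-WT and 94.5, 96.6, 96.6 and 257 CPM in O-NR GMPs. The last of these, O-NR replicate 4, was above all other GMP libraries, and without it the log2 difference became -0.51 (edgeR adjusted p = 0.352).

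In CLPs no member was called either, among 19909 genes of which 0 (0%) were called and 640 (3.21%) had an unadjusted p below 0.05. Elane had the largest estimate of the 7. It was at 12.5, 10.3, 35.7 and 9.95 CPM in O-WT and at 38.5, 19.2, 21.6 and 16.6 CPM in O-NR CLPs, so that the groups overlapped through O-WT replicate 3. The log2 difference was 0.72 (SE 0.28, 95% interval 0.15 to 1.29, edgeR adjusted p = 1.00). Leaving out O-WT replicate 3 gave 1.16 (unadjusted p = 9.5e-05, edgeR adjusted p = 0.382). That library had the fewest counted reads of all (4792380) and the highest TMM factor of the CLP libraries (1.73). Mpo differed by 0.38 (-0.09 to 0.85), Prtn3 by 0.42 (-0.13 to 0.98) and Ctsg by 0.23 (-0.18 to 0.65). The estimates for Prss57, Ms4a3 and Ly6c2 were -0.03, 0.18 and 0.31.

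Markers of later neutrophils and of GMPs also varied among the CLP libraries. The summed level of 8 later neutrophil markers was 60.6 to 189 CPM in O-WT CLPs (median 170) and 20.5 to 156 CPM in O-NR CLPs (median 70.6), and none of the 8 was at 0 in either group. After centering on each condition, their sum had r = 0.79 over the 8 CLP libraries with Elane, 0.74 with Mpo, 0.68 with Ctsg, 0.42 with Ly6c2, 0.28 with Ms4a3, 0.24 with Prtn3 and 0.17 with Prss57. The sum of the 6 GMP markers, centered in the same way, had r = 0.80 with Prtn3, 0.79 with Ms4a3, 0.76 with Elane, 0.65 with Ly6c2, 0.62 with Mpo, 0.48 with Ctsg and 0.42 with Prss57. These values were above 0 for each member but differed widely between members. The marker sums were in CPM without TMM scaling, whereas the members were scaled. TMM factors of the CLP libraries ran from 0.787 to 1.73. Between conditions the later neutrophil sum had the lower median in O-NR, whereas the Elane and Mpo estimates were above 0. The GMP sum also holds genes that are not particular to GMPs, such as Clec12a at a mean of 95.6 CPM in CLPs and 185 CPM in GMPs. The part of GMPs or later neutrophils in the CLP levels was not tested.

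In HSCs only Mpo and Prtn3 of cohort 2 passed the filter on low counts, and neither was called, with 0 of 17364 genes (0%) called and 705 (4.06%) at an unadjusted p below 0.05. The log2 difference between O-NR and O-WT was -0.35 for Mpo (95% interval -1.24 to 0.55) and 0.07 for Prtn3 (-0.26 to 0.40). In cohort 1 all members but Elane were tested, and 0 of 33350 genes (0%) were called in each of the comparisons of O-NR with O-WT, of O-NR-RC with O-NR and of O-NR-RC with O-WT, with 182 (0.546%), 97 (0.291%) and 265 genes (0.795%) at an unadjusted p below 0.05. Estimates for the 6 genes ran from -0.31 to 0.06 for O-NR against O-WT, from -0.07 to 0.38 for O-NR-RC against O-NR and from -0.20 to 0.15 for O-NR-RC against O-WT. Both comparisons with O-NR-RC used the same 3 libraries. The interval for Prtn3 was wide, from -1.37 to 1.13 for O-NR against O-WT.

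Without the 4 libraries that stood apart, both O-WT libraries of cohort 1 were kept, with 2 from O-NR mice and 1 after washout. In that fit the lone O-NR-RC library, assumed to vary like the other groups, differed from O-WT by -0.71 for Mpo (edgeR adjusted p = 0.0693) and by 0.64 for Prtn3 (edgeR adjusted p = 0.0594), against 0.14 and -0.20 with all 9 libraries. The other 4 genes lay between -0.39 and 0.11 in that comparison. For O-NR against O-WT the 6 estimates ran from -0.45 (Prss57) to 0.33 (Prtn3), and for O-NR-RC against O-NR from -0.47 (Mpo) to 0.56 (Prss57). No member was called in these reduced fits, in which 76, 165 and 576 of 28275 genes were called for O-NR against O-WT, O-NR-RC against O-NR and O-NR-RC against O-WT. Over both cohorts the O-NR difference was called for none of the 6 members tested, with 0 of 23413 genes (0%) called and 216 (0.923%) at an unadjusted p below 0.05. The O-NR difference was not called to differ between the cohorts for any of the 6, with 0 genes (0%) called and 436 (1.86%) at an unadjusted p below 0.05. Without the 4 libraries, 5 members were tested over both cohorts and none was called, with estimates from -0.81 (Ms4a3) to 0.14 (Prtn3). The differences between cohorts then ran from -0.97 (Prss57) to 0.81 (Ms4a3), again with none called.

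**Figure D5:**
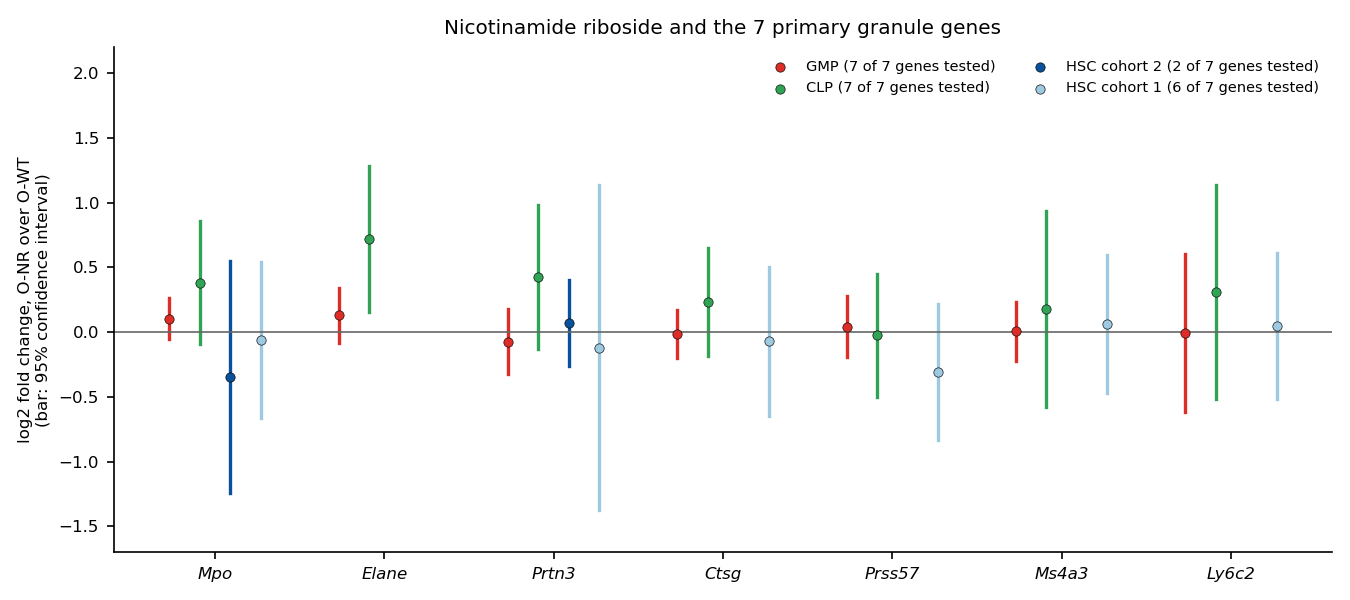
Log2 fold change of O-NR over O-WT for each member tested in GMPs, CLPs and HSCs of cohorts 1 and 2, with bars for the 95% confidence interval and a line at 0. All intervals include 0 except that of Elane in CLPs, which runs from 0.15 to 1.29.

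The NR difference itself was compared between cell types as an interaction over the 24 libraries of cohort 2. No member was called, where edgeR called 1 of 22573 genes (0.00443%) for GMPs against HSCs, 0 (0%) for GMPs against CLPs and 1 (0.00443%) for CLPs against HSCs, with 318 (1.41%), 655 (2.9%) and 519 genes (2.3%) at an unadjusted p below 0.05. The estimate with the smallest p was that of Ms4a3 between CLPs and HSCs, 1.28 (95% interval 0.32 to 2.23, unadjusted p = 0.00962, edgeR adjusted p = 1.00). Ms4a3 was at 2.17, 5.34, 4.75 and 2.97 CPM in O-WT HSCs and at 2.59, 0.443, 0.567 and 2.99 CPM in O-NR HSCs, where replicates 2 and 3 held 4 and 8 reads.

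Across the 24 libraries of cohort 2, the log2 CPM of Mpo followed those of Elane, Ctsg and Prss57 with r = 0.98 to 0.99 and those of Ms4a3 and Ly6c2 with r = 0.93. Prtn3 followed the other 6 less closely, with r from 0.55 for Mpo to 0.78 for Ly6c2. Among the 8 GMP libraries alone, after centering on condition, the 6 genes other than Ly6c2 had r of 0.76 to 0.99 with each other, Prtn3 included. Ly6c2 had r of 0.08 to 0.60 with them. The TMM factor of a library enters every gene, and ran from 0.414 to 0.761 in GMPs. In CPM, without these factors, the coefficient of variation of Mpo in GMPs was only 5.65%. The r values among GMP libraries thus hold the factors as well as the genes. Whether Prtn3 followed the other genes in GMPs apart from the factors was not tested. The libraries also share depth and composition, so all of these values are descriptions.

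The genes most like the mean of the 7 over the same 24 libraries, among 22566 other genes, were F630028O10Rik (r = 0.993), Card9 (0.992), an adaptor of antifungal signaling, Rab44 (0.990), a large Rab GTPase, and Cebpa (0.989), which encodes C/EBP alpha. Anxa3, Ccl9, Afap1, Csf2rb, Fcgr2b and Arsb completed the first 10. Rab44 averaged 6.01 CPM in HSCs and 570 CPM in GMPs. Cebpa averaged 1.85 CPM in HSCs, 9.44 CPM in CLPs and 138 CPM in GMPs. Over the 8 GMP libraries alone the nearest genes were others, led by Osbpl9 (r = 0.998), Atg101 (0.997) and Cdc42ep3 (0.996). Tet2, Tnfrsf1b, Ska1, Tmem147, Alas1, Taf8 and Mterf4 completed the first 10, with r of 0.993 to 0.995. These values also hold the TMM factors, which are common to all genes of a library. For Prtn3 alone, a pattern looked up after its levels were known, the nearest genes were B4galt6 (r = 0.992), Dio2 (0.988) and Nhsl2 (0.987). B4galt6 averaged 33.6 CPM in HSCs, 8.96 CPM in CLPs and 103 CPM in GMPs.

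Further genes were counted from lists, which were chosen with earlier results of these data known and hold more than granule products. Over all 22573 genes tested, 18.6% were called higher and 20% lower in GMPs than in HSCs. Against CLPs, 24.1% were higher and 32.1% lower in GMPs, and 9.38% were higher and 16.7% lower in CLPs than in HSCs. Listed genes that were low in HSCs entered these tests through the cells where they were high, so their counts support nothing further. Of 18 genes listed as protease partners and other primary granule genes, 14 were higher and 0 lower in GMPs than in HSCs, with a median of 3.42. Genes called higher included Cst7 (6.59), which encodes the cathepsin inhibitor cystatin F. Hp (haptoglobin, 6.54), Igsf6 (5.95) and Plac8 (7.05) are on the list and among the 14, although they are not taken here as primary granule products. The counts and medians of this list are therefore not those of granule products alone. Against CLPs, 15 of the 18 genes were higher in GMPs and 1 lower, with a median of 2.06. Between CLPs and HSCs, 8 were higher in CLPs and 3 lower, with a median of 0.96, and Cd63, a granule membrane tetraspanin, fell by 3.66 from HSCs to CLPs.

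Of 20 myeloid regulators and receptors, 17 were higher and 1 lower in GMPs than in HSCs. They were led by Cebpa (6.77), Fcgr3 (5.59), Cebpe (5.11) and Fcgr2b (4.12). Cebpa, Fcgr3 and Cebpe averaged 1.85, 3.00 and 1.61 CPM in HSCs of cohort 2 and entered this test through other cells. Against CLPs 18 were higher and 0 lower. Between CLPs and HSCs 7 were higher and 6 lower in CLPs. Irf8, a regulator of monocyte, dendritic and B lineages, was 4.62 higher in CLPs, whereas the cytokine receptor genes Csf3r and Kit and the regulator Cebpb fell by 2.49, 2.67 and 2.72 from HSCs to CLPs. The list medians were 2.12, 2.15 and 0.36 in these 3 comparisons.

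Genes of the later neutrophil list followed another order. Of 12 tested out of 15, 10 were higher and 0 lower in CLPs than in HSCs (median 2.33), and 9 were lower and 2 higher in GMPs than in CLPs (median -1.69). S100a9, S100a8 and Ngp, which encode calprotectin subunits and a secondary granule protein, were 4.76, 3.73 and 3.85 higher in CLPs than in HSCs. None of these genes passed the filter in the HSC libraries by themselves, where their means were 0.940, 1.56 and 2.00 CPM. In single CLP libraries S100a9 ran from 0.284 to 56.0 CPM. Of 12 monocyte genes, 8 were higher and 0 lower in GMPs than in HSCs, among them F13a1 (5.70) and Ccr2 (4.46), and 7 were higher and 0 lower in CLPs than in HSCs. Of 22 relatives of the members by family or locus, 14 were tested, with 7 higher and 1 lower in GMPs than in HSCs. Mcpt8 (6.32), Prss34 (6.71), Epx (7.77) and Ms4a2 (5.46), genes of basophils, mast cells or eosinophils, were higher, and Ly6a, which encodes the Sca1 antigen used to sort HSCs, fell by 5.05. With all libraries kept, no gene of these lists was called at an adjusted p below 0.05 for NR in GMPs, CLPs or HSCs. The same held for all 13486 genes tested in GMPs and all 19909 in CLPs. It also held for all 17364 and 33350 genes in HSCs of cohorts 2 and 1, so this is no result about the lists.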

How the data were processed

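Total RNA sequencing libraries (SMARTer Stranded Total RNA-Seq, Pico input) were trimmed, aligned with STAR to mm10 and counted per gene on Gencode M22 with featureCounts by the authors, who deposited the whole-number counts without normalization. The strand setting and the treatment of multiply mapped reads are not given in the sources used here. Coordinates are from Gencode M21, in which 54510 of 55376 symbols were found. Groups and cohorts were taken from the sample labels.

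A gene was kept if it passed 3 CPM in a number of libraries no lower than the size of the smallest group. Libraries were scaled by TMM and compared with edgeR 4.0.16 (quasi-likelihood test) in R 4.3.3, over all genes, with Benjamini-Hochberg adjustment. Standard errors were derived from the F statistic. CPM printed per library are relative to all counted reads, without TMM. The fit was tested on simulated data. DESeq2 1.42.0 served as an alternative, with other scalings, no filter, a replicate block and libraries left out.

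The members and lists were chosen with earlier results of these data known. Named genes were the members, up to 4 genes per list by p, the 10 genes most like the set, and annotated neighbors within 50 kb.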

Additional observations from a re-analysis of the deposited data

Results flagged for a closer look

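In groups of 4 libraries, the distance of the highest or lowest library to its nearest neighbor was compared with the group's range for each of the 7 members and for the share of reads on the set. Of the 56 combinations examined over 7 groups, 3 held a library far from the others, about as many as chance gives at the 95% level of this test. Elane was at 35.7 CPM in O-WT CLP replicate 3, where the other 3 libraries of that group held 9.95 to 12.5 CPM. Prss57 was at 14.4 CPM in O-WT CLP replicate 1, where the others held 18.6 to 19.4 CPM. Ly6c2 was at 257 CPM in O-NR GMP replicate 4, where the others held 94.5 to 96.6 CPM. In that last library Mpo was at 15123 CPM and Ms4a3 at 192 CPM, the lowest of the 4 O-NR GMP libraries for each.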

How the results depend on the processing

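The number of members called in each comparison was unchanged within 1.5 times in 332 of 333 alternatives, including all 223 that left out a library. Libraries of the same condition and number in different cell types had a mean correlation of deviations of -0.03 (-0.48 to 0.36). For O-NR and O-WT HSCs of the same number in cohort 2 it was 0.14 (-0.35 to 0.65). For HSCs of the same number in cohort 1 it was 0.03 (-0.85 to 0.81). These values cannot show whether libraries of 1 number were paired, so the main fits used no pairing. The exception among the 333 alternatives was the replicate block on the NR difference between HSC cohorts. It called 1 member, Prtn3 (-0.78, edgeR adjusted p = 0.0192), instead of 0. The block also brought Ly6c2 between CLPs and HSCs to an edgeR adjusted p of 0.0251 and ended no call. Of 2154 refitted member differences, 2144 kept their direction when called and their side of the threshold, 4 lost a call (all Ms4a3 between CLPs and HSCs, with 0.0733 by DESeq2), 6 gained one (5 of Ly6c2 between CLPs and HSCs, with 0.0459 without the filter and 0.0424 with the 12 O-WT libraries alone) and 0 called values reversed, while 118 values that were not called changed sign. Without mitochondrial and rRNA genes in the total, the share of reads on the set moved to 1.97% in O-WT and 2.14% in O-NR GMPs, to 0.0126% and 0.0124% in O-WT and O-NR HSCs of cohort 2 and to 0.0124% in O-NR-RC HSCs. Scaling moved the median of all genes from -0.32 to between -0.57 and -0.12 for GMPs against HSCs, and from -0.42 to between -0.89 and -0.21 for GMPs against CLPs. Leaving out the 4 libraries of cohort 1 and the fit without scaling between libraries were chosen after seeing the data. Depth limits the HSC values of Elane (53 reads over 8 libraries) and of the other members with few reads.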

Other observations

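In HSCs of cohort 1, several genes of the later neutrophil list gave low unadjusted p-values between O-NR-RC and O-NR. The list holds granule genes and also the calprotectin genes S100a8 and S100a9. Of the 15 genes, 5 had an unadjusted p below 0.01, of 12 such genes among all 33350 tested. S100a9 was higher in O-NR-RC by 2.40 on the log2 scale (edgeR adjusted p = 0.644), Ngp by 1.09, S100a8 by 1.02, Ltf by 0.78 and Lcn2 by 0.77, and none passed the adjusted threshold. S100a9 was at 6.68, 11.8 and 17.98 CPM in O-NR-RC, at 3.03, 2.97, 2.13 and 0.691 CPM in O-NR and at 1.74 and 5.32 CPM in O-WT. Without the 4 libraries that stood apart, the difference was 2.48 for S100a9 (edgeR adjusted p = 0.00098), 0.71 for Ngp, 0.99 for S100a8, 0.38 for Ltf and 0.45 for Lcn2, with 1 O-NR-RC library assumed to vary like the other groups and adjusted p of 0.272 or more for the last 4. The summed level of 8 later neutrophil markers was 49.2 to 150 CPM in the 3 O-NR-RC libraries, 35.4 to 76.6 CPM in O-NR and 42.7 to 68.6 CPM in O-WT. The lowest O-NR-RC sum thus lay within the ranges of O-NR and O-WT. These sums are CPM without TMM scaling, and O-NR-RC replicates 2 and 3 and O-NR replicates 1 and 2 are the libraries that stood apart. A difference in the sums after washout was not tested. Between O-NR-RC and O-NR with all libraries kept, the 6 primary granule genes tested lay between -0.07 and 0.38, with 0 of them at an unadjusted p below 0.01.

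Alas1, which encodes the first enzyme of heme synthesis, ranked 8 among the genes most like the set within GMP libraries. It averaged 593 CPM in GMPs, 42.3 CPM in CLPs and 32.2 CPM in HSCs of cohort 2. A link of Alas1 to any member was not tested. In HSCs of cohort 2, Gfi1, a repressor active in granulocyte development, had the only unadjusted p below 0.01 among the myeloid regulators tested for NR (-0.55, unadjusted p = 0.00685, edgeR adjusted p = 0.995). In CLPs Mmp9, a later granule protease gene, had a value of -1.31 (unadjusted p = 0.00201, edgeR adjusted p = 1.00).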
